A study of Danio rerio with 24 samples.

Results

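Endodermal cells of zebrafish embryos treated with BMS493 were followed from the 3-somite (3-S) to the 8-somite (8-S) stage. The comparison set the 3 libraries of BMS493 8-S cells against the 3 libraries of BMS493 3-S cells. These 6 of the 24 RNA-seq libraries of the series were chosen by sample title alone. All embryos came from incrosses of Tg(sox17:GFP) adults, in which the sox17 promoter drives GFP in the endoderm, and no other allele was named. Cells were separated by FACS, so that endodermal cells are the GFP+ cells and non-endodermal (NE) cells the GFP- cells. BMS493 was given through the blastula and gastrula periods up to the 3-S stage. By the study's methods the older embryos were washed when treatment ended and then raised in medium. The BMS493 8-S cells had thus been exposed and then released. The other groups, also 3 libraries at each stage, were endodermal cells given retinoic acid (RA) over the same period, endodermal cells given the solvent DMSO, and NE cells of the DMSO embryos. The sorted cells were those in which the transgene was on, so changes in which cells entered the gate and changes within cells cannot be told apart. Nothing in the labels says that replicates were separate batches of embryos, so p-values measure only the spread between these libraries, which may be technical.

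RA is made from vitamin A by aldehyde dehydrogenases such as aldh1a2 and is broken down by cyp26 enzymes. It binds RA receptors (RARs), which sit on DNA with RXR partners and switch genes on when RA is present. BMS493 is an inverse agonist of all RARs, which strengthens their hold on corepressors and silences their targets. In the early zebrafish embryo RA sets position along the anterior-posterior axis through hox genes, and pancreatic fate in the endoderm requires it. The comparison asks what the BMS493-exposed endoderm did in the hours after the drug was removed, and whether genes that depend on RA came back.

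Total gene counts were 11968097 to 17806766 in the BMS493 8-S libraries and 11994263 to 13829041 in the BMS493 3-S libraries. Values below are normalised read counts, the raw counts divided by a size factor for each library, given in the order of replicates 1, 2 and 3. The 6 libraries did not fall apart by stage. Pearson's r of log2 normalised counts across genes was 0.955 to 0.962 among replicate 3 of 8-S and replicates 1 and 3 of 3-S. It was 0.928 to 0.936 among replicates 1 and 2 of 8-S and replicate 2 of 3-S, and 0.860 to 0.911 between those sets. Genes are not independent replicates, and no test was made of this pattern. sox17, the endodermal gene behind the transgene, had 4067, 6131 and 12970 normalised counts at 8-S and 15490, 1045 and 15630 at 3-S. The second 3-S library therefore held far less sox17 than the others. The summed level of 13 endoderm markers, sox17 among them, was 29680, 34460 and 40690 at 8-S and 40620, 20660 and 40660 at 3-S. The second 3-S library was the lowest of the 6 by this sum too, though by a smaller factor. Since sox17 is part of the sum, this is no separate support. Single markers differed. In the second 3-S library foxa3 (3561) and sox32 (346) were the highest of the 3-S group, gata6 (142) was the lowest, and prox1a (28.6) lay between. Reads in no annotated gene made up 16.8% to 23.7% of the 8-S libraries and 11.6% to 19.2% of the 3-S libraries. The ratio of reads counted on the opposite strands was 0.991 to 1.001 at 8-S and 1.030 to 1.108 at 3-S. The same gap was present in every other group of the series, so stage and a difference in library handling cannot be told apart. By this ratio each of the 6 libraries lay with its labelled stage, while by the correlations replicate 3 of 8-S and replicate 2 of 3-S lay with the other stage. The labels name no preparation batch. Whether these libraries share one or carry the wrong label was not tested, and all 8-S against 3-S values rest on the stages as labelled.

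**Figure D1:**
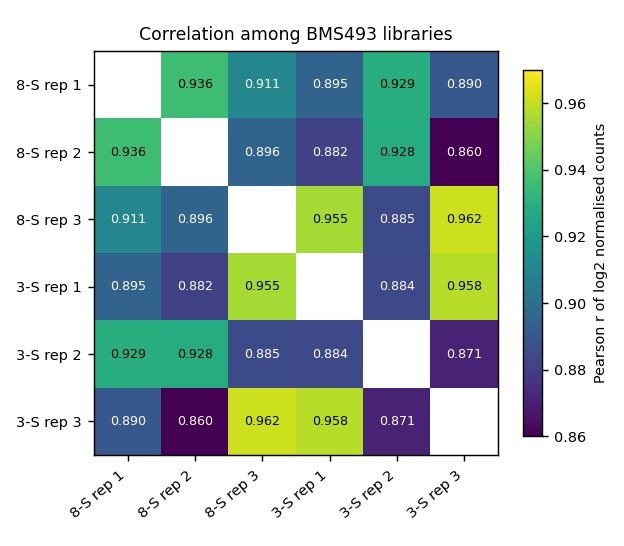
Pearson's r of log2 normalised counts for each pair of the 6 BMS493 libraries, with 8-S replicates before 3-S replicates on both axes. The third 8-S library correlated with replicates 1 and 3 of 3-S at 0.955 and 0.962, above its r with the other 8-S libraries (0.911 and 0.896).

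Few genes passed the DESeq2 test between the stages. leng8 (ENSDARG00000076805) rose, and hkdc1 (ENSDARG00000038703), a hexokinase-like gene, and cldn26 (ENSDARG00000076137), a claudin of the tight junction family, fell. These 3 genes were 0.0214% of the 14015 genes tested (DESeq2, adjusted p under 0.01, all 24 libraries in one fit), with 0.00714% higher and 0.0143% lower. At the same threshold edgeR called 0 of 16800 genes, with a smallest adjusted p of 0.273. At an unadjusted p under 0.05 DESeq2 gave 1182 of the 14015 genes (8.43%) and edgeR 1109 of its 16800.

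leng8 had 1188, 2276 and 1996 normalised counts in BMS493 8-S cells, against 579, 539 and 572 in BMS493 3-S cells. All 8-S libraries lay above all 3-S libraries, and the 3-S libraries were close together. The log2 fold change was 1.69 ± 0.34 (SE, n = 3 each; adjusted p = 0.0021 with DESeq2 and 0.27 with edgeR). In DMSO endoderm leng8 averaged 1088 normalised counts at 8-S (652 to 1472) and 807 at 3-S (677 to 943), a log2 fold change of 0.43 with an adjusted p of 0.78.

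hkdc1 had 143, 125 and 129 normalised counts at 8-S, against 425, 366 and 383 at 3-S. The groups did not overlap, and every 8-S library was well below every 3-S library. The log2 fold change was -1.57 ± 0.29 (SE, n = 3 each; adjusted p = 5.8e-04 with DESeq2 and 0.27 with edgeR). In DMSO endoderm the log2 fold change of hkdc1 was -0.85, with an adjusted p of 0.17.

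cldn26 had 0, 0 and 0 counts at 8-S, against 45.6, 1.06 and 28.9 normalised counts at 3-S. It was therefore near 0 in the second 3-S library as well. With 3 counts over the 8-S group as the floor (0.848 normalised counts), its 3-S mean of 25.2 (SD 22.5) was 29.7-fold above that floor. This ratio takes the 3-S mean as exact, and the second 3-S library, at 1.06, lay close to the floor. The adjusted p for the stage comparison was 2.5e-05 with DESeq2 and 0.75 with edgeR. In DMSO endoderm cldn26 averaged 9.95 normalised counts at 8-S (0 to 20.1) and 12.8 at 3-S (0 to 22.8). It was at 0 in at least 1 library of every other group of the series, with ranges of 0 to 13.9 at 8-S and 0 to 149 at 3-S in RA endoderm and of 0 to 42 at 8-S and 0 to 32.1 at 3-S in NE cells.

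The number of calls rested on single libraries. Without the third 8-S library DESeq2 called 34 genes, 18 higher and 16 lower at 8-S. Without the second 3-S library it called 0, with 2413 genes at an unadjusted p under 0.05. That number covers every gene with a p-value, where the fit to all 24 libraries gave 1471. DESeq2 called 1 gene without replicate 1 or 3 of 3-S or replicate 2 of 8-S. leng8 lost its call without any of the 3-S libraries or the second 8-S library, with adjusted p-values of 0.028 to 0.20. hkdc1 lost its call without the same libraries, with adjusted p-values of 0.013 to 0.088. The direction of both stayed the same in each of these fits. The adjusted p of cldn26 was not available (NA) without the second 3-S library.

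**Figure D2:**
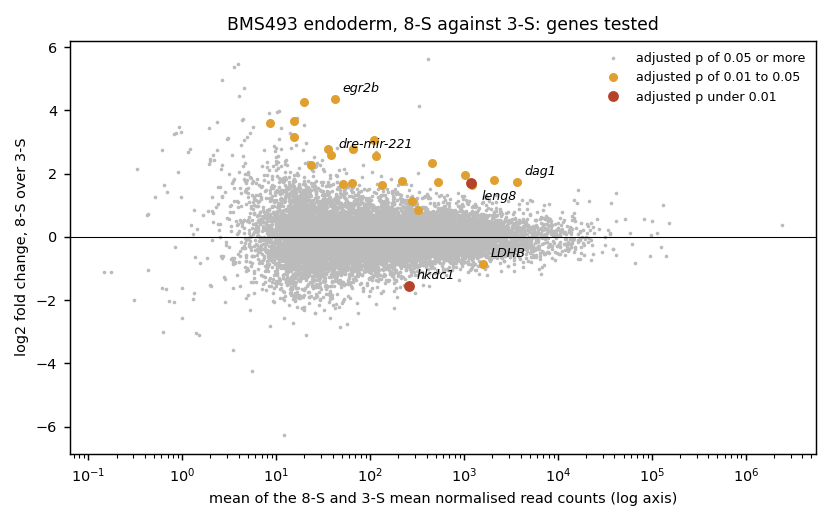
Log2 fold change of BMS493 8-S over 3-S cells (vertical axis) against the mean normalised read count (log axis) for the genes tested. Points in red passed an adjusted p of 0.01, points in orange lay between 0.01 and 0.05, and grey points lay above. cldn26, which had 0 counts at 8-S, is left off the plot. The orange points are nearly all above 0.

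A further 24 genes had an adjusted p between 0.01 and 0.05 and were not called, 23 of them higher at 8-S and 1 lower. At the 0.05 level 27 genes passed (0.193% of those tested). In 23 of the 24 the 8-S and 3-S libraries did not overlap. Among all 14015 genes tested, 718 were higher and 764 lower at 8-S without overlap. The 24 were picked by a small p in this same comparison, so their lack of overlap is no separate support. Of the 23 higher genes, 20 also had a positive log2 fold change in DMSO endoderm. The 1 lower gene, LDHB, was negative there too (-0.39). The BMS493 and DMSO stage changes had the same sign in 8530 of all 14015 genes tested. Of the 24, 4 carry no gene name. The genes described next from this set were chosen after their values were seen.

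Genes of the tailbud and forming mesoderm, and of the cell surface and matrix, were among them. Of 22 tested tailbud and posterior genes, however, 14 lay above 0 and 8 below. Only tbx16 and msgn1 of that list reached an unadjusted p under 0.05 with DESeq2. tbx16, a T-box factor that directs mesodermal cells of the zebrafish tailbud, had 2239, 2403 and 851 normalised counts at 8-S, against 546, 698 and 528 at 3-S. The third 8-S library stood between the other 8-S libraries and the 3-S group. Its log2 fold change was 1.63 ± 0.36 (SE; adjusted p = 0.016), and 1.39 in DMSO endoderm (adjusted p = 0.028). msgn1, a bHLH factor of the presomitic mesoderm, had 1577, 2717 and 594 at 8-S, against 403, 507 and 340 at 3-S (log2 fold change 1.97, adjusted p = 0.047). Here again the third 8-S library was the lowest of its group, though above all 3-S libraries. pcdh8, a protocadherin, had 282, 567 and 175 normalised counts at 8-S, against 119, 97.6 and 80.8 at 3-S (1.78, adjusted p = 0.047). dag1, which encodes the laminin receptor dystroglycan, had 4979, 8826 and 3190 normalised counts at 8-S, against 2276, 1743 and 1080 at 3-S (1.74, adjusted p = 0.037). Its groups did not overlap. has2, a hyaluronan synthase, had 60.3, 89.2 and 84.1 at 8-S, against 33.3, 20.2 and 20.2 at 3-S (1.66, adjusted p = 0.047).

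Some genes known from neural tissue were also in this set. egr2b, a hindbrain zinc finger factor, had 30.2, 178 and 35.7 normalised counts at 8-S, against 0.876, 6.37 and 4.81 at 3-S (log2 fold change 4.36 ± 1.09 SE, adjusted p = 0.045). One 8-S library, the second, carried most of its mean. sox1b, a SoxB1 factor of neural progenitors, had 12.9, 48.2 and 23.8 at 8-S, against 5.26, 1.06 and 2.89 at 3-S (3.17, adjusted p = 0.027). olig4, a neural bHLH gene, had 49.6, 68.2 and 68.8 at 8-S, against 7.89, 15.9 and 3.85 at 3-S (2.77, adjusted p = 0.042). The 8-S and 3-S libraries did not overlap in any of these genes. ZIC4, a zinc finger gene of the dorsal neural tube, had 11.8, 20.9 and 14.6 at 8-S, against 0, 2.12 and 1.93 at 3-S (3.61, adjusted p = 0.047), near the floor of the counts at 3-S. In DMSO endoderm sox1b, olig4 and ZIC4 also had positive log2 fold changes (2.07, 2.05 and 2.54), but egr2b did not. There egr2b averaged 28.1 at 8-S and 33.9 at 3-S (-0.27), so its BMS493 level was 290% of DMSO at 8-S and 11.8% at 3-S.

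Some genes outside these groups had similar adjusted p-values. The locus named dre-mir-221 (ENSDARG00000091272) had 61.4, 59.1 and 77.4 normalised counts at 8-S, against 10.5, 11.7 and 10.6 at 3-S (log2 fold change 2.60, adjusted p = 0.016). These libraries were primed on poly(A) tails, so the reads are not a measure of the mature miRNA. dhcr7, which encodes the last enzyme of cholesterol synthesis, had 144, 239 and 226 at 8-S, against 75.4, 58.4 and 62.6 at 3-S (1.64, adjusted p = 0.048), and -0.16 in DMSO endoderm. LDHB, a lactate dehydrogenase subunit, was the only one lower at 8-S, at 1122, 1018 and 1251, against 1491, 2919 and 1787 at 3-S (-0.87, adjusted p = 0.047). bcl2l13, of the Bcl-2 family, had 414, 407 and 330 at 8-S, against 190, 177 and 159 at 3-S (1.13, adjusted p = 0.027), close to its 0.97 in DMSO endoderm.

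**Figure D3:**
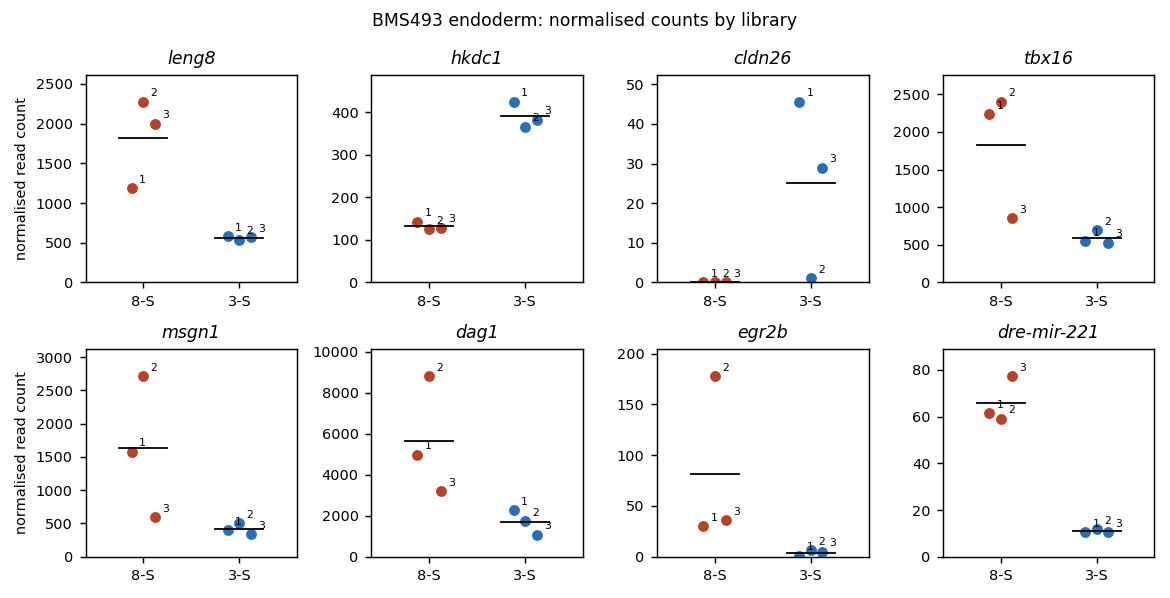
Normalised read counts of 8 genes in each BMS493 library, 8-S to the left of 3-S, with the replicate number beside each point and a line at the group mean. leng8, hkdc1 and cldn26 passed an adjusted p of 0.01 and the others lay between 0.01 and 0.05. For tbx16 and msgn1 the third 8-S library was the lowest 8-S point.

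The genes of the RA pathway did not pass the test between stages. None was called among the 28 of 32 members tested in a list of retinoid metabolism and signalling, the 25 of 25 RA-responsive transcription factors or the 23 of 25 pancreatic and hepatic regulators. Their median log2 fold changes were 0.11, -0.04 and -0.17, beside -0.02 over all genes tested. At an unadjusted p under 0.05 these lists held 4 higher and 2 lower, 0 higher and 3 lower, and 3 higher and 4 lower members, where all genes tested gave 4.45% higher and 3.98% lower. Members that averaged 50 normalised counts or more in either BMS493 group numbered 21, 17 and 13. Their log2 fold changes ran from -0.82 to 1.29, from -1.12 to 0.90 and from -1.13 to 1.48. None of the enzymes of RA turnover was called. aldh1a2 had 139, 129 and 110 normalised counts at 8-S, against 110, 63.7 and 53.9 at 3-S (0.73, 95% interval -0.21 to 1.67). cyp26a1 had 1569, 1951 and 1154 at 8-S, against 1234, 1406 and 1754 at 3-S (0.09, interval -0.62 to 0.80). cyp26b1, another RA-degrading enzyme, had 45.2, 93.7 and 51 at 8-S, against 25.4, 48.8 and 3.85 at 3-S (1.29, interval -0.04 to 2.62). In DMSO endoderm it averaged 25.5 at 8-S and 58.8 at 3-S (-1.21), so the BMS493 level was 249% of DMSO at 8-S and 44.3% at 3-S. The difference of these stage changes, 2.5, was not called (adjusted p = 1). ALDH1A3, an RA-making enzyme, had 7.54, 0.91 and 4.63 at 8-S, against 0.876, 0 and 0 at 3-S, too few counts for a firm value (adjusted p = 0.49). meis2b, a homeobox gene with the smallest p among the transcription factors, had 564, 702 and 794 at 8-S, against 1007, 2395 and 1088 at 3-S (-1.12, adjusted p = 0.20). Its groups did not overlap.

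Of the 80 different members of the 3 lists, 24 were lower in BMS493 than in DMSO endoderm at 8-S, at 3-S or at both (DESeq2, adjusted p under 0.01). BMS493 against DMSO called 65 genes of 16814 at 8-S (0.387%), 64 of them lower (0.381%), and 30 of 17374 at 3-S (0.173%), all lower. These comparisons use the same BMS493 libraries as the stage comparison, so the members below were chosen partly on the values shown, and the levels are a description. Of the 24, 12 averaged 50 normalised counts or more in a BMS493 group and 12 did not.

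dhrs3a, a retinaldehyde reductase that RA induces, was among the genes furthest below DMSO. It had 9.7, 14.6 and 5.96 normalised counts in BMS493 8-S cells, against 36.8, 1.06 and 26.9 in BMS493 3-S cells. The DMSO means were 990 at 8-S and 1284 at 3-S, so the BMS493 level was 1.02% of DMSO at 8-S and 1.68% at 3-S. The second 3-S library was below every 8-S library, and the groups overlapped. nrip1b, a nuclear receptor corepressor gene, had 253, 190 and 128 at 8-S, against 115, 137 and 107 at 3-S, which was 37.0% of DMSO at 8-S and 22.8% at 3-S. Where a pair of DMSO percentages or DMSO means stands without stages in what follows, the 8-S value precedes the 3-S value.

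Among the members lower than in DMSO were hox genes, which encode positional homeobox factors. hoxb1b, hoxb5b and hoxc1a were called lower at both stages, and hoxa3a, hoxb1a and hoxb6b at 8-S only. hoxb5b had 167, 139 and 154 normalised counts in BMS493 8-S cells, against 178, 169 and 114 in BMS493 3-S cells. Its stage log2 fold change was 0.00, with a 95% interval of -0.55 to 0.55. The level was 16.0% of DMSO at 8-S and 25.7% at 3-S, since DMSO cells averaged 960 at 8-S and 598 at 3-S. hoxb1b had 1065, 835 and 821 at 8-S, against 921, 841 and 1068 at 3-S (-0.06, interval -0.63 to 0.52), or 30.8% and 39.7% of DMSO. hoxb1a had 364, 366 and 467 at 8-S, against 558, 260 and 712 at 3-S, or 26.5% and 36.9% of DMSO. In all of these the 2 stages overlapped. hoxa3a had 83, 78.2 and 76.8 at 8-S, against 45.6, 85.9 and 46.2 at 3-S (29.4% and 53% of DMSO), and at 3-S it overlapped the DMSO range of 62.1 to 178. hoxb6b had 260, 153 and 74.8 at 8-S, against 145, 189 and 109 at 3-S (29.6% and 47.1% of DMSO). hoxc1a was at 17.1% of DMSO at both stages, with 71.1, 34.6 and 30.4 at 8-S, against 35, 20.2 and 52 at 3-S. Across the hox family 0 of 40 tested genes was called, and 20 lay above 0 and 20 below. The median log2 fold change was 0.01, beside 0.70 in DMSO endoderm. In 39 of the 40 the BMS493 stage change was below the DMSO stage change, where it was in 7051 of all 14015 genes tested. Of the 40 differences 1 reached an unadjusted DESeq2 p under 0.05, where 572 of all genes tested did. By paralogue group the medians were -0.03 with BMS493 and 0.58 with DMSO for groups 1 to 8, and 0.15 and 0.77 for groups 9 to 13.

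Orphan nuclear receptors of the COUP-TF family were also lower than in DMSO. nr2f1a had 127, 107 and 131 normalised counts at 8-S, against 135, 79.6 and 160 at 3-S, which was 16.7% and 12.8% of DMSO. nr2f5 had 454, 373 and 316 at 8-S, against 300, 156 and 275 at 3-S. Its groups did not overlap, but it was not called (log2 fold change 0.64, adjusted p = 0.59), and it stood at 38.7% and 27.4% of DMSO. nr2f2 had 236, 129 and 82.7 at 8-S, against 103, 70 and 66.4 at 3-S (0.90, interval -0.01 to 1.80), at 21.5% and 18.6% of DMSO. The third 8-S library was within the 3-S range for nr2f2. tshz1, a zinc finger gene, had 273, 136 and 128 at 8-S, against 138, 139 and 112 at 3-S, at 34.3% and 24.9% of DMSO.

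Regulators of the liver and pancreas differed in the DMSO levels beside them. gata6, a zinc finger factor of the endoderm, had 180, 69.2 and 102 normalised counts in BMS493 8-S cells, against 158, 142 and 171 in BMS493 3-S cells. This was 14.3% of DMSO at 8-S and 10.4% at 3-S, and the groups overlapped. pdx1, the pancreatic homeobox gene, had 9.7, 5.46 and 5.29 at 8-S, against 13.1, 4.24 and 5.78 at 3-S. DMSO endoderm averaged 280 at 8-S (213 to 399) and 41 at 3-S (13.6 to 61), so BMS493 stood at 2.43% of DMSO at 8-S and 18.8% at 3-S. The log2 fold change was -0.21 with BMS493 (95% interval -1.75 to 1.32) and 2.77 in DMSO endoderm (adjusted p = 0.013). The difference between these, -2.99, was not called (adjusted p = 1).

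nr5a2, an orphan nuclear receptor of the liver and pancreas, had 378, 244 and 234 at 8-S, against 480, 328 and 323 at 3-S. DMSO endoderm averaged 835 at 8-S and 405 at 3-S, so the BMS493 level was 34.2% of DMSO at 8-S and 93.1% at 3-S. The stage log2 fold change was -0.41 with BMS493 (95% interval -0.99 to 0.18) and 1.04 in DMSO endoderm (0.46 to 1.62). The difference between the stage changes was -1.45 and was not called (adjusted p = 1). Among the 23 tested pancreatic and hepatic regulators, 8 had such a difference at an unadjusted DESeq2 p under 0.05. That p was reached by 572 of all 14015 genes tested. insm1a, a zinc finger gene of endocrine cells, had 0, 0 and 0.662 at 8-S, against 2.63, 4.24 and 0.963 at 3-S, while DMSO averaged 181 at 8-S and 94.7 at 3-S. All 6 BMS493 libraries were near the floor. ascl1b, a bHLH gene that begins the endocrine programme in zebrafish, had 14, 0 and 25.1 at 8-S, against 9.64, 20.2 and 24.1 at 3-S, at 2.1% and 6.06% of DMSO. prox1a, a homeobox gene of liver and pancreas that was not among the genes lower than in DMSO, had 89.4, 94.6 and 48.3 at 8-S, against 13.1, 28.6 and 41.4 at 3-S (1.48, adjusted p = 0.20). Its groups did not overlap.

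**Figure D4:**
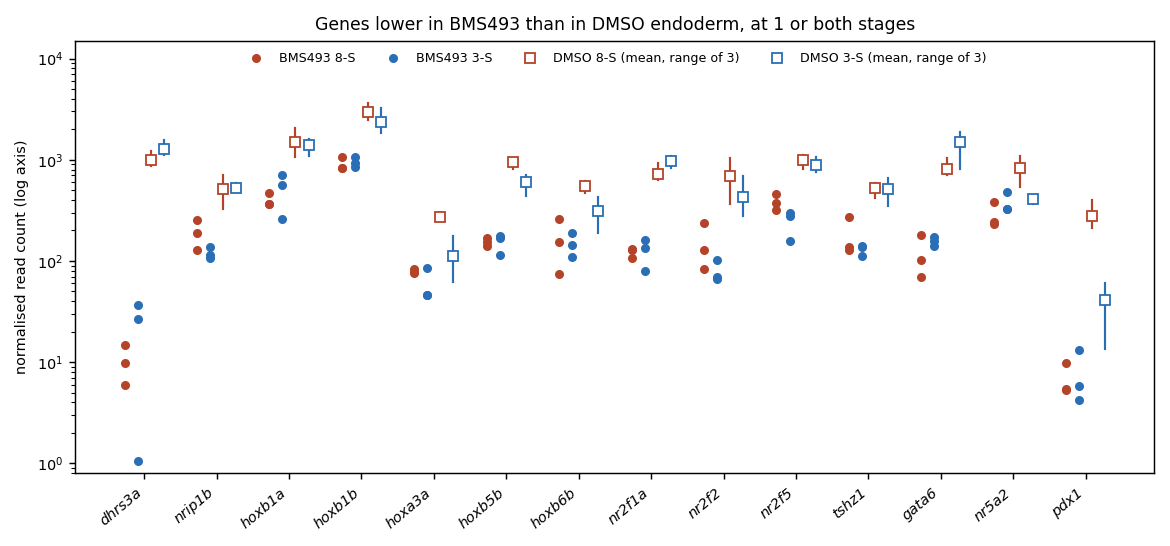
Normalised read counts (log axis) of 14 genes lower in BMS493 than in DMSO endoderm at 1 or both stages. Filled points are the single BMS493 libraries and open squares the DMSO means with the range of 3 libraries, in red for 8-S and in blue for 3-S. The BMS493 8-S points lie below the DMSO 8-S range in each gene shown. All of these genes had been called lower than DMSO at 8-S in these same libraries, so this separation is a description only.

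The stage change in DMSO endoderm gave a list of genes against which the BMS493 cells could be read, since these comparisons share no library. DMSO 8-S against 3-S called 44 of 15135 genes (0.291%), 37 higher (0.244%) and 7 lower (0.0463%), and edgeR called 0 (1303 of 16800 at an unadjusted p under 0.05). Of the 37, 33 had a log2 fold change above 0 with BMS493, where 48.4% of all genes tested did. With BMS493 17 were higher at 8-S without overlap between stages, where 5.12% of all genes tested were. The median was 1.14 with BMS493 and 2.86 in DMSO. The DMSO value is raised by the choice of genes on it. Of the 7 lower genes 6 were below 0 with BMS493, with a median of -0.69, against -1.74 in DMSO. None of the 44 was called with BMS493, and has2, msgn1 and pcdh8 passed 0.05. RA endoderm called 15 of 15693 genes (0.0956%), of which all 13 higher genes (0.0828%) were above 0 with BMS493 at a median of 0.67. NE cells called 3 of 21298 (0.0141%). edgeR called 0 in these comparisons too, with 1761 and 546 genes at an unadjusted p under 0.05.

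The genes with the largest stage change in DMSO included neural and muscle regulators. neurod, a neural and endocrine bHLH factor, had 0, 3.64 and 54.3 normalised counts in BMS493 8-S cells, against 1.75, 1.06 and 0.963 in BMS493 3-S cells. The third 8-S library alone held nearly all of it. DMSO averaged 97.2 at 8-S and 0 at 3-S. MYOD1, the muscle bHLH factor, had 12.9, 41.9 and 60.9 at 8-S, against 3.5, 14.8 and 21.2 at 3-S, with DMSO means of 54.1 and 2.76. her1 and her7 are segmentation clock genes. her1 had 113, 112 and 122 at 8-S, against 75.4, 66.8 and 78 at 3-S (log2 fold change 0.66, against 1.93 in DMSO). her7 had 489, 570 and 481 at 8-S, against 438, 102 and 385 at 3-S (0.73, against 2.18 in DMSO). In both the stages did not overlap with BMS493.

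A few of the DMSO genes were close to flat with BMS493, and these were chosen after their values were seen. cldn15a, an intestinal claudin, had 63.6, 31.9 and 29.1 normalised counts in BMS493 8-S cells, against 28.9, 54.1 and 30.8 in BMS493 3-S cells, while DMSO averaged 417 at 8-S and 89.6 at 3-S. The log2 fold change was 0.12 with BMS493 and 2.22 in DMSO. slc7a9, an amino acid transporter gene, had 2.15, 5.46 and 5.29 at 8-S, against 7.89, 2.12 and 4.81 at 3-S, with DMSO means of 102 and 24.6. hsd17b3, a steroid dehydrogenase gene, had 3.23, 15.5 and 6.62 at 8-S, against 14, 3.18 and 10.6 at 3-S, with DMSO means of 60.7 and 6.2. All of these overlapped between stages with BMS493. ret, a receptor tyrosine kinase gene, had 3.23, 7.28 and 1.99 at 8-S, against 3.5, 7.43 and 4.81 at 3-S, with DMSO means of 25.3 and 2.64. sppl3, a protease gene, fell in DMSO (1020 at 8-S, 2944 at 3-S) and had 2328, 2495 and 2075 with BMS493 at 8-S, against 1781, 2830 and 1438 at 3-S. hoxd12a, the hox gene called in DMSO, had 108, 244 and 116 at 8-S, against 172, 70 and 130 at 3-S (0.33, against 2.67 in DMSO), or 40.8% of DMSO at 8-S and 207% at 3-S.

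**Figure D5:**
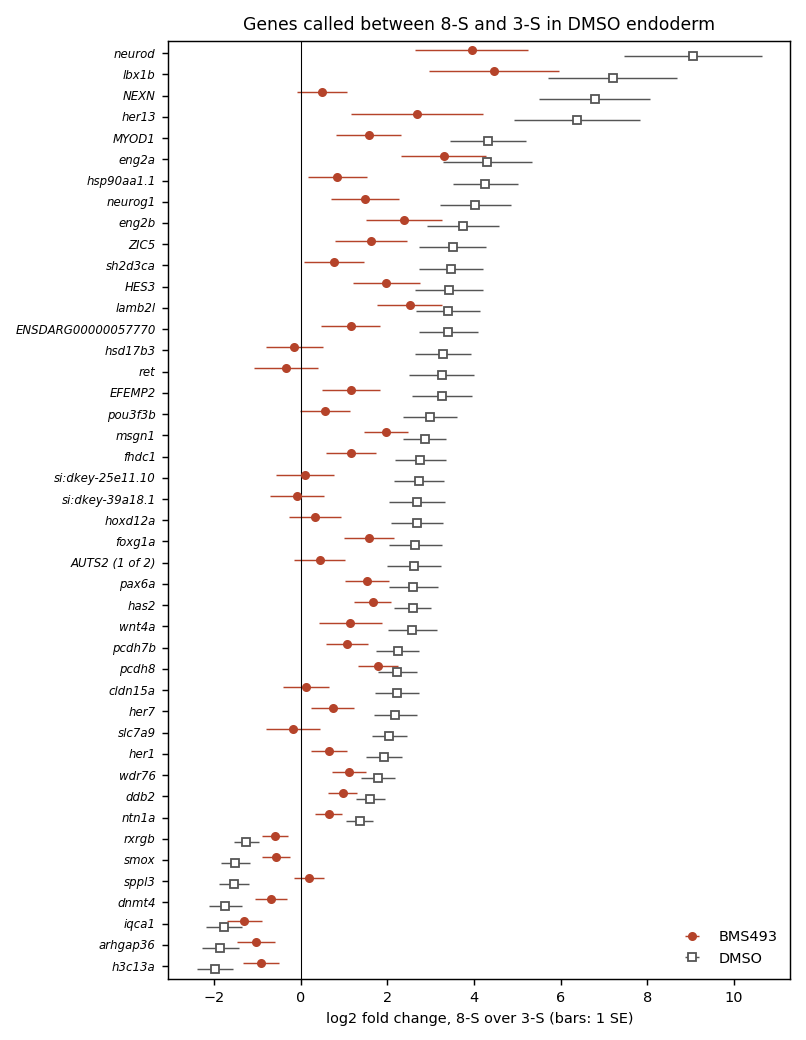
Log2 fold change of 8-S over 3-S cells (bars: 1 SE) for the 44 genes called in DMSO endoderm, with BMS493 as filled red points and DMSO as open squares. Genes run down the page by their DMSO value. The genes were chosen on the DMSO values, and 33 of the upper 37 also lie above 0 with BMS493.

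The differences themselves were tested across 29144 genes, a wider base than the 14015 of the stage comparison. On the wider base the BMS493 stage change gave 1471 genes (5.05%) at an unadjusted DESeq2 p under 0.05. Among the 14015, 572 had a BMS493 minus DMSO difference at that p. BMS493 minus DMSO stage change gave 0 calls with DESeq2 (817 or 2.80% at an unadjusted p under 0.05) and 0 with edgeR (560). BMS493 minus RA stage change gave 0 with DESeq2 (709 or 2.43%) and 0 with edgeR (461). BMS493 minus NE stage change gave 1 gene, RPRM (0.00343%), with 981 (3.37%) at an unadjusted p under 0.05, and 0 with edgeR (729). In this fit no gene is therefore shown to have moved differently with BMS493 than with DMSO. Without the third 8-S library the counts were 1 for DMSO and 4 for NE cells.

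RPRM (ENSDARG00000024006), known as a cell cycle inhibitor downstream of p53 in mammals, had 20.5, 20.9 and 14.6 normalised counts in BMS493 8-S cells, against 57.8, 24.4 and 61.6 in BMS493 3-S cells. In NE cells it averaged 208 at 8-S (168 to 287) and 69.7 at 3-S (63.1 to 82.5). The log2 fold change was -1.38 ± 0.43 (SE) with BMS493 and 1.58 ± 0.39 in NE cells, and neither was called. DMSO endoderm averaged 54.5 at 8-S and 71.2 at 3-S (-0.39), and RA endoderm 48.0 at 8-S and 58.5 at 3-S (-0.28), also below 0. The difference of the BMS493 from the DMSO stage change was not called (-0.99, adjusted p = 1). The difference between BMS493 and NE cells was -2.96 ± 0.57 (adjusted p = 0.0074 with DESeq2 and 0.82 with edgeR). The call was lost without any single BMS493 library other than the second 3-S library, with adjusted p-values of 0.020 to 0.23.

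Lists of other tissues and pathways were described by count and median, since none of their members was called. Of all genes tested 48.4% lay above 0, and an unadjusted p under 0.05 was reached by 4.45% that were higher at 8-S and by 3.98% that were lower. Among 23 tested neural genes 19 lay above 0, and that p was reached by 8 that were higher and 0 that were lower. Their median log2 fold change was 1.07 with BMS493, 1.7 in DMSO and 1.29 in RA endoderm, but -0.04 in NE cells. elavl3, an RNA-binding protein of neurons, had 6.46, 20 and 33.8 at 8-S, against 0.876, 2.12 and 0.963 at 3-S (3.97, adjusted p = 0.068). The summed level of the neural list overlapped between stages, at 10360 to 14350 at 8-S and 9933 to 13310 at 3-S. Among 18 somite and muscle genes 15 lay above 0 and 6 were higher at an unadjusted p under 0.05. Their median was 0.73 with BMS493, 1.81 in DMSO and 0.99 in RA endoderm, and 0.69 in NE cells. myf5, a muscle bHLH gene, had 38.8, 30 and 111 at 8-S, against 8.76, 20.2 and 18.3 at 3-S (1.95, adjusted p = 0.26). The 9 tested neural crest genes had a median of 1.0, against 1.35 in DMSO endoderm and -0.15 in NE cells, with 7 above 0. The summed level of the neural crest list was 556 to 877 at 8-S and 397 to 410 at 3-S. Of the 22 tailbud and posterior genes 14 lay above 0 with a median of 0.22, against 0.98 in DMSO endoderm and 0.48 in NE cells.

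Markers of cells that a GFP gate could also hold moved with stage to different extents. The 18 markers of the yolk syncytial layer summed to 52770 to 75170 normalised counts at 8-S and 91900 to 130100 at 3-S, without overlap. apoeb, an apolipoprotein gene of this layer, had 38360, 37890 and 65200 at 8-S, against 119400, 61080 and 70820 at 3-S. It made up most of the sum in every library, and its own groups overlapped. In DMSO endoderm the list summed to 42890 to 69780 at 8-S and 72110 to 76590 at 3-S, also without overlap. ctsla, a cathepsin gene, had 3188, 3565 and 3955 at 8-S, against 4202, 6656 and 6172 at 3-S (-0.67, adjusted p = 0.31). Blood and vessel markers summed to 7475 to 9281 at 8-S and 6349 to 8165 at 3-S, and somite and muscle markers to 928 to 2270 at 8-S and 784 to 1393 at 3-S. Epidermal markers summed to 18840 to 48200 at 8-S and 29580 to 32590 at 3-S. Notochord markers summed to 17310 to 21300 at 8-S and 13440 to 18720 at 3-S. Lateral plate markers lay at 4406 to 4791 at 8-S and 4401 to 5902 at 3-S, and germ line markers at 61.9 to 230 at 8-S and 55.2 to 81.5 at 3-S. Of these lists 1 of 22 blood and vessel markers (hbbe3), 1 of 17 lateral plate markers (cmlc1) and 1 of 15 neural crest markers (FOXD3) were at 0 in all 6 libraries, and every other marker had counts. The part of other cells in the differences between stages was not tested, and fewer cells of a type cannot be told apart from less RNA per cell in these bulk samples.

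Within the endoderm itself the marker list did not move together. Of 12 tested endoderm markers 7 lay above 0, with a median of 0.22, against -0.27 in DMSO endoderm. In 1 of the 12 the BMS493 stage change was below the DMSO stage change, where it was in 7051 of all 14015 genes tested. None of the 12 differences was called, but 3 reached an unadjusted DESeq2 p under 0.05, where 572 of all 14015 genes tested did. foxa3, a forkhead factor of the whole gut endoderm, had 3611, 4028 and 3999 normalised counts at 8-S, against 3282, 3561 and 3441 at 3-S (0.18, 95% interval -0.58 to 0.93). The groups did not overlap but the difference was small. In DMSO endoderm foxa3 averaged 2688 at 8-S and 5036 at 3-S (-0.91, 95% interval -1.66 to -0.15). sox32, the zebrafish factor that starts endoderm formation, had 80.8, 123 and 111 at 8-S, against 181, 346 and 215 at 3-S (-1.24, adjusted p = 0.71). In DMSO endoderm sox32 averaged 30.1 at 8-S and 199 at 3-S. Of 19 pharyngeal and anterior endoderm genes 14 lay above 0 (48.4% of all genes tested), and 5 were higher at 8-S without overlap (5.12% of all genes tested). Their median was 0.45, against 0.30 in DMSO and 0.40 in RA endoderm. foxi1, a forkhead gene of the pharyngeal region, had 495, 676 and 586 at 8-S, against 285, 197 and 240 at 3-S (1.28, adjusted p = 0.49). eya2, a transcriptional cofactor gene, had 1945, 1425 and 1058 at 8-S, against 1200, 970 and 430 at 3-S (0.77, adjusted p = 0.55), with overlapping groups.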

How the data were processed

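mRNA was captured with an oligo-dT primer and libraries were made with Nextera XT. According to the submitters' processing notes the authors aligned reads with STAR (version 2.5.4) to Zv9. The deposited files hold raw counts per gene. The column that ignores strand was used, its first 4 rows were dropped, and multi-mapped reads are not counted, so genes with near-identical copies or overlapping neighbours are uncertain. Names were matched for 22589 of 33737 gene IDs (66.96%), and coordinates and sequences were not used here. The listed gene dld was left out, since the matching symbol names another gene.

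Groups came from sample titles. DESeq2 (1.42.0, R 4.3.3) was fitted to all 24 libraries with group as the only factor, and a gene was called at a Benjamini-Hochberg adjusted p under 0.01, with unshrunken log2 fold changes. Intervals are 95% Wald intervals. edgeR (4.0.16) quasi-likelihood tests and sva surrogate variables were alternatives, beside other scalings, filters, strand columns, thresholds, a replicate block and leaving out each BMS493 library. The functions were tested on simulated counts. The smallest share that 3 counts can show was 1.68e-05% to 2.51e-05% per BMS493 library, which covers counting error only. Replicates differed by more than sampling noise (chi-square per degree of freedom 54.6 to 138).

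The members and gene lists were chosen with earlier results of these data known. Genes named by rule were called genes, members of the retinoid, RA-responsive and pancreatic lists that averaged 50 or more normalised counts, genes called in a difference of stage changes, and up to 3 members of another list by smallest p. Other named genes are said to be chosen after their values were seen, and so were the members under 50 normalised counts and the additional genes of the DMSO list and the marker lists. The level of independent filtering (0.1, the default) was set after counts at another level were known. One gene is not reported here.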

Additional observations from a re-analysis of the deposited data

Results flagged for a closer look

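RPRM differed between BMS493 endoderm and NE cells in its stage change, by a DESeq2 test of the difference itself. The difference of the log2 fold changes, BMS493 minus NE, was -2.96 ± 0.57 (SE, adjusted p = 0.0074). RPRM was lower at 8-S in all pairings of the 3 BMS493 8-S with the 3 BMS493 3-S libraries, and higher at 8-S in NE cells (168 to 287 at 8-S, 63.1 to 82.5 at 3-S). The stage log2 fold change of RPRM was also below 0 in DMSO (-0.39) and RA endoderm (-0.28), and its difference between BMS493 and DMSO was not called (-0.99, adjusted p = 1). It was not called in 10 of its 19 alternatives, edgeR among them, with adjusted p-values over all alternatives of 9.8e-05 to 0.82.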

How the results depend on the processing

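The count of 3 called genes became 0 with edgeR, 1 with the 6 BMS493 libraries alone, 27 at a threshold of 0.05 and 7 with the first strand column, and leaving out single libraries gave 0 to 34. It was within 1.5 times of 3 with the other planned settings. Fits added after the data were seen gave 3 with the independent-filter level at 0.01, 0 with the share of reads in no gene as a covariate, and 5 and 43 with 1 and 2 surrogate variables. The surrogate variables were estimated from the same counts. BMS493 minus DMSO stage change (0 calls) gave 17 with the no-gene covariate, 16 and 40 with 1 and 2 surrogate variables, and 0 to 1 without single libraries. BMS493 minus NE (1 call) gave 0 with edgeR, TMM and each strand column, 13, 12 and 22 in those added fits, and 0 to 4 without single libraries. BMS493 minus RA (0 calls) gave 1 with the second strand column, and 12, 9 and 24 in the added fits. The causes of these moves were not tested. With the no-gene covariate leng8 and hkdc1 lost their calls (adjusted p = 0.088 and 0.035). The adjusted p of cldn26 was not available (NA) with that covariate or without the second 3-S library.

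With a replicate block the count was 4 (2 higher, 2 lower), the 3 differences gave 0 calls for DMSO, 1 for NE and 0 for RA, and RPRM was not called (adjusted p = 0.011). The labels give replicates a number and do not say whether same-numbered libraries were paired. Deviations from the group mean in same-numbered BMS493 8-S and 3-S libraries correlated with r = -0.23, 0.48 and 0.58.

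Of 72 genes followed, 17 changed sign in some setting, none of them called. hoxb5b was 0.0314 with edgeR, 0.0235 with TMM, 0.000299 with a count filter, 0.165 with the second strand column, 0.0121 with the block and 0.0657 with the no-gene covariate. cyp26a1 was -0.0216 with total-count scaling. pdx1 and hsd17b3 were 0.822 and 0.436 with the first strand column, and hoxb6b, slc7a9 and ret were -0.022, 0.312 and 0.996 with the second. With the no-gene covariate hoxc1a was -0.188, hoxb6b -0.423, tshz1 -0.0699, pdx1 0.368, slc7a9 0.045, hsd17b3 0.947, cldn15a -0.637, sppl3 -0.31, sox17 1.08, foxa3 -0.197 and cyp26a1 -0.273. With 1 surrogate variable hoxb6b was -0.0811, nr2f1a 0.0732 and cyp26a1 -0.0984. With 2 they were -0.0647 for hoxb6b, -0.0143 for cldn15a, 0.247 for sox17 and -0.133 for cyp26a1. Leaving out single libraries gave ascl1b -1.40 to 0.152, cldn15a -0.314 to 0.474, cyp26a1 -0.104 to 0.268, hoxb1b -0.189 to 0.0408, hoxb5b -0.177 to 0.123, hoxb6b -0.378 to 0.486 and hoxc1a -0.144 to 0.694. It gave hoxd12a -0.147 to 0.641, hsd17b3 -0.874 to 0.287, nr2f1a -0.265 to 0.181, pdx1 -0.538 to 0.421, ret -1.04 to 0.045, slc7a9 -0.513 to 0.342 and sppl3 -0.00419 to 0.523. Genes with a few counts per library, such as cldn26 and insm1a, are limited by depth.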

Other observations

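Genes of the p53 and stress response were mostly below 0 at 8-S. Of 25 tested, 22 had a negative log2 fold change with BMS493, where 7236 of all 14015 genes tested did. The median of the list was -0.48, beside -0.02 over all genes tested. An unadjusted p under 0.05 was reached by 2 members that were lower, where 3.98% of all genes tested reached it. The list's median was also below 0 in DMSO (-0.67), RA (-0.50) and NE cells (-0.36), and 0 members were called with BMS493. GADD45A, a DNA damage response gene, averaged 27.1 ± 12.3 normalised counts at 8-S and 74.1 ± 17.7 at 3-S (SD, n = 3 each; log2 fold change -1.44, adjusted p = 0.35). cdkn1a, the p21 cell cycle inhibitor, had 137, 204 and 155 at 8-S, against 218, 306 and 277 at 3-S (-0.69, adjusted p = 0.55). Neither gene overlapped between stages.

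Of 29 cell cycle genes 19 lay below 0, where 7236 of all 14015 genes tested did. Their median was -0.17, beside -0.02 over all genes tested. MCM3, a subunit of the replicative helicase, had 660, 610 and 703 at 8-S, against 1289, 1136 and 766 at 3-S (-0.69, adjusted p = 0.45). cdh1, which encodes E-cadherin, had 13300, 48070 and 10850 at 8-S, against 12310, 7828 and 5912 at 3-S (1.47, adjusted p = 0.37), so its 8-S mean rested on the second library. chrd, a secreted BMP antagonist gene, had 40.9, 51.9 and 24.5 at 8-S, against 11.4, 12.7 and 6.74 at 3-S (1.92, adjusted p = 0.28).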
